A study of Arabidopsis thaliana with 30 samples.

Results

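The class III homeodomain-leucine zipper (HD-ZIP III) transcription factors ATHB8, ATHB15, PHB, PHV and REV, and the LITTLE ZIPPER repressors ZPR1, ZPR2 and ZPR3, were followed in detached Arabidopsis leaves. The 8 genes were selected by locus identifier from 38194 counted loci, as members of the 2 families, and all 8 were found. Leaves 1 and 2 of 10 d old Columbia-0 seedlings, pooled at about 18 to 20 per sample, were incubated at 21 °C in buffer with 5% glucose and 0.2% dimethyl sulfoxide. Mock leaves received the buffer alone. Stimulated leaves also received 20 µM bikinin, an inhibitor of GSK3-type kinases that switches on brassinosteroid signalling, the synthetic auxin 2,4-D at 2.5 µg/mL and kinetin, a cytokinin, at 0.5 µg/mL, a mixture that drives leaf cells toward vascular fates. Total RNA depleted of rRNA was sequenced at 6, 7, 8, 9 and 10 h with 3 replicates of each treatment, so that 30 libraries form 10 groups that all share excision, surface sterilisation in bleach and sugar feeding.

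HD-ZIP III proteins bind DNA as dimers through a homeodomain and leucine zipper, and they set the upper (adaxial) side of the leaf and pattern the vascular cylinder. ATHB8 is a marker of preprocambial and procambial cells that is activated by auxin through the response factor MONOPTEROS (MP), and REV, PHB and PHV act redundantly in adaxial identity and meristem formation. The microRNAs miR165 and miR166 cleave their transcripts and ARGONAUTE10 (AGO10) withholds these microRNAs from ARGONAUTE1 (AGO1). ZPR proteins carry a leucine zipper without a DNA-binding domain, form inactive dimers with HD-ZIP III proteins, and their genes are themselves induced by REV and its relatives in Arabidopsis.

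The microRNA guides and their target sites are shown because they set these 5 transcription factor genes apart from the ZPR genes. The guides were read from the TAIR10.1 assembly at the places given by its RefSeq annotation, 5′ to 3′ in DNA letters, with the seed (bases 2 to 8) in capitals.
miR165: tCGGACCAggcttcatccccc
miR166: tCGGACCAggcttcattcccc
The miR165 guide is encoded by 2 loci and the miR166 guide by 7. They share a seed and differ by the substitution C17T, counted from the 5′ end of the guide, with the miR165 base first. In the target sites, capitals mark bases that pair with miR165 by Watson-Crick rules.
ATHB8: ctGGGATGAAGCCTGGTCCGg
ATHB15: ctGGaATGAAGCCTGGTCCGg
PHB: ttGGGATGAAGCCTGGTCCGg
PHV: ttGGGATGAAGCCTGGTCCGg
REV: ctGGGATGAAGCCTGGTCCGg
Each site of 21 bases lies in the coding sequence and spans an exon junction, between exons 5 and 6 in ATHB8 and between exons 4 and 5 in the other genes. Relative to the ATHB8 site, counted from its 5′ end, ATHB15 carries G5A, and PHB and PHV each carry C1T. Against miR165 the sites leave 3 bases without a Watson-Crick partner, or 4 in ATHB15, and against miR166 they leave 4, or 3 in ATHB15. The best match in the representative transcript of each ZPR gene left 9 or 10 of the 21 bases without a Watson-Crick partner. Other transcripts of ZPR2 were not searched.

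Libraries held 14981271 to 22729166 counts. The columns for mock replicate 3 at 6 h and at 7 h were identical, the only such case among 435 pairs of libraries. They were counted once in means, which leaves 14 distinct mock libraries. The edgeR fits kept both columns unless stated, so their SEs and p-values treat this 1 library as separate libraries at 6 h and 7 h. Replicate 3 stood apart from replicates 1 and 2 in every group. For example, plastid loci took 0.692 ± 0.115% of counts in its 9 distinct libraries and 2.38 ± 0.488% in the other 20 (SD). No batch is named in the labels, nor whether each replicate was sown and harvested on its own, and the p-values here therefore rest on the variation among these libraries, which may be technical. The treatment was visible in its known response genes: GH3.3, an auxin-conjugating enzyme, and ARR5, a cytokinin response regulator, rose by 8.97 ± 0.44 and 5.32 ± 0.41 (log2 fold change ± SE). DWF4, a brassinosteroid synthesis gene, fell by 3.08 on the same scale. ARR5 passed the low-count filter only through stimulated libraries, so a rise was favoured for it. The mesophyll marker RBCS1A stood at 7679 ± 1833 CPM (counts scaled to a common library size) in mock (SD), while the meristem genes STM, WUS, CLV3 and KNAT1 gave 9, 5, 2 and 70 counts over all 29 distinct libraries. Of the root markers, PLT1 and PLT2 gave 0 and 2 counts, but GL2, which is also active in leaf trichomes, gave 3218 and fell from 7.08 ± 2.11 to 4.38 ± 1.53 CPM (log2 fold change -0.65 ± 0.20, edgeR adjusted p = 0.00789).

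The stimulus raised ATHB8 and REV at every hour and left PHB and ATHB15 without a called change on average. ZPR1 and ZPR3 were modestly higher on average, both more so in replicate 3 and ZPR1 mainly there, and the sparsely counted ZPR2 was lower. On counts summed over hours only ATHB8 and REV were called. By edgeR's quasi-likelihood test on the average over 5 hours, 4 of the 8 genes were higher and 1 lower at an adjusted p below 0.05. Over all 21052 genes tested, 29.7% were higher and 27.0% lower by the same rule, and the median log2 fold change was 0.02. With library totals in place of trimmed mean (TMM) scaling, the higher share of all calls went from 52.4% to 66.8% and the median gene shifted by 0.13. In these bulk samples, fewer cells of a type and less RNA per cell cannot be told apart.

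ATHB8 (AT4G32880, chromosome 4, 15863339 to 15868650 on the minus strand of TAIR10.1, 18 exons) was the HD-ZIP III gene with the greatest response. In mock leaves its level ranged from 25.1 to 33.5 CPM with a median of 30.1 (n = 14), scaled to TMM-adjusted library sizes. In stimulated leaves it ranged from 100.02 to 159 CPM with a median of 127 (n = 15). The groups did not overlap at any hour, and the lowest stimulated library lay well above the highest mock library. At 6 h, mock replicates 1, 2 and 3 gave 33.0, 28.4 and 28.0 CPM and stimulated replicates gave 105, 100.02 and 100.4 CPM. At 10 h the mock values were 33.5, 31.5 and 27.8 CPM and the stimulated values 159, 140.2 and 135 CPM. All 3 stimulated libraries were thus higher at 10 h than at 6 h, while mock stayed level. The average log2 fold change was 2.03 ± 0.06 (SE, edgeR adjusted p = 5.75e-18), a 4.08-fold rise seen in 15 of 15 same-numbered pairs of mock and stimulated libraries. The replicate 3 pairs of 6 h and 7 h share 1 mock library, and 13 of 13 pairs were higher without them. Among all genes tested, 2.73% had a higher log2 fold change.

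The 250 bases before the annotated ATHB8 start (chr4:15868651-15868900, minus strand, TAIR10.1) are shown because the stimulus contains an auxin and ATHB8 is a known target of auxin response factors. Capitals mark the auxin response motif TGTCTC and its variant TGTCTG, both searched on each strand.
ATHB8: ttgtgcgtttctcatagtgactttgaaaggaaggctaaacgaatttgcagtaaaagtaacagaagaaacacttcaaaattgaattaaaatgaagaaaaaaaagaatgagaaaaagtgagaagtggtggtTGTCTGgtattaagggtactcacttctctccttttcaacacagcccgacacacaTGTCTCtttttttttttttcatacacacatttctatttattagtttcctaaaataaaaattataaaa
TGTCTG begins 121 bases and TGTCTC 67 bases before the start. In windows from 250 bases before to 50 after the start of 27444 genes, 8.70% held TGTCTG and 14.2% held TGTCTC. Of the 8 genes, TGTCTG was found in the window of ATHB8 alone, and TGTCTC in those of ATHB8 and ZPR2. A match describes the letters of the window and shows neither binding nor its absence.

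REV (AT5G60690, chromosome 5, 24396981 to 24402195, plus strand), which promotes adaxial and interfascicular fibre identity, rose about 2-fold at every hour. Mock libraries held 28.7 to 41.0 CPM with a median of 34.9, and stimulated libraries held 59.9 to 106 CPM with a median of 67.8. The groups did not overlap at any hour. At 9 h the mock values for replicates 1, 2 and 3 were 36.9, 37.2 and 28.7 CPM and the stimulated values 67.8, 61.9 and 106 CPM. Replicate 3 had the lowest mock level and the highest stimulated level at that hour. The average log2 fold change was 1.09 ± 0.09 (edgeR adjusted p = 1.22e-09), higher in 15 of 15 pairs (13 of 13 without those that share a mock library). REV overlaps AT5G60700 on the opposite strand by 67 bases. The libraries were stranded, but whether strand was used in counting is not given in the sources used here.

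PHV (AT1G30490, chromosome 1, 10796124 to 10801093, minus strand) was not called on average, and its call depended on the setting. Its mock range was 25.3 to 44.7 CPM with a median of 37.6 and its stimulated range 24.9 to 58.2 CPM with a median of 46.2, so the groups overlapped. Stimulated libraries were higher in 10 of 10 pairs of replicates 1 and 2 and in 2 of 5 pairs of replicate 3 (2 of 3 without those that share a mock library). The average log2 fold change was 0.27 ± 0.13 (edgeR adjusted p = 0.0884). With the replicate number as a block it was 0.25 and was called (edgeR adjusted p = 5.06e-05), in a fit that called 69.2% of all genes, but the block on counts summed over hours did not call it (0.25, adjusted p = 0.140). It was also called with library totals in place of TMM scaling (0.41, adjusted p = 0.0284, with 59.8% of all genes called), in replicates 1 and 2 alone (0.33, adjusted p = 3.55e-06, with 65.4% called), and when stimulated replicate 3 of 6 h or of 7 h was left out (adjusted p = 0.035 and 0.0436). PHB shares 2.12% of its 31-base words with PHV, and PHV shares 4.72% with PHB and AT5G32670, so a small part of their reads could be split between them.

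PHB (AT2G34710, chromosome 2, 14639323 to 14644355, minus strand) and ATHB15 (AT1G52150, also called CORONA, chromosome 1, 19409688 to 19414764, minus strand) showed no called change on average. PHB ranged from 24.9 to 41.7 CPM in mock (median 29.4) and from 16.5 to 49.0 CPM with stimulus (median 33.7). ATHB15 ranged from 19.7 to 45.7 CPM in mock (median 31.9) and from 13.1 to 46.1 CPM with stimulus (median 37.2). The stimulated range was wider than the mock range for each gene and enclosed it. At 6 h PHB read 41.7, 34.1 and 25.2 CPM in mock replicates 1, 2 and 3 and 31.7, 29.98 and 16.5 CPM with stimulus. At 10 h it read 28.7, 30.1 and 27.5 CPM in mock and 49.0, 47.5 and 24.5 CPM with stimulus. Every stimulated replicate was thus below its mock partner at 6 h, and at 10 h replicates 1 and 2 were above theirs while replicate 3 was still below. Average log2 fold changes were 0.04 ± 0.15 for PHB (edgeR adjusted p = 0.840) and 0.03 ± 0.21 for ATHB15 (adjusted p = 0.922), with approximate 95% intervals from -0.25 to 0.33 and from -0.38 to 0.43. Their sign turned negative in the blocked fit and without the identical mock columns, again uncalled.

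**Figure D1:**
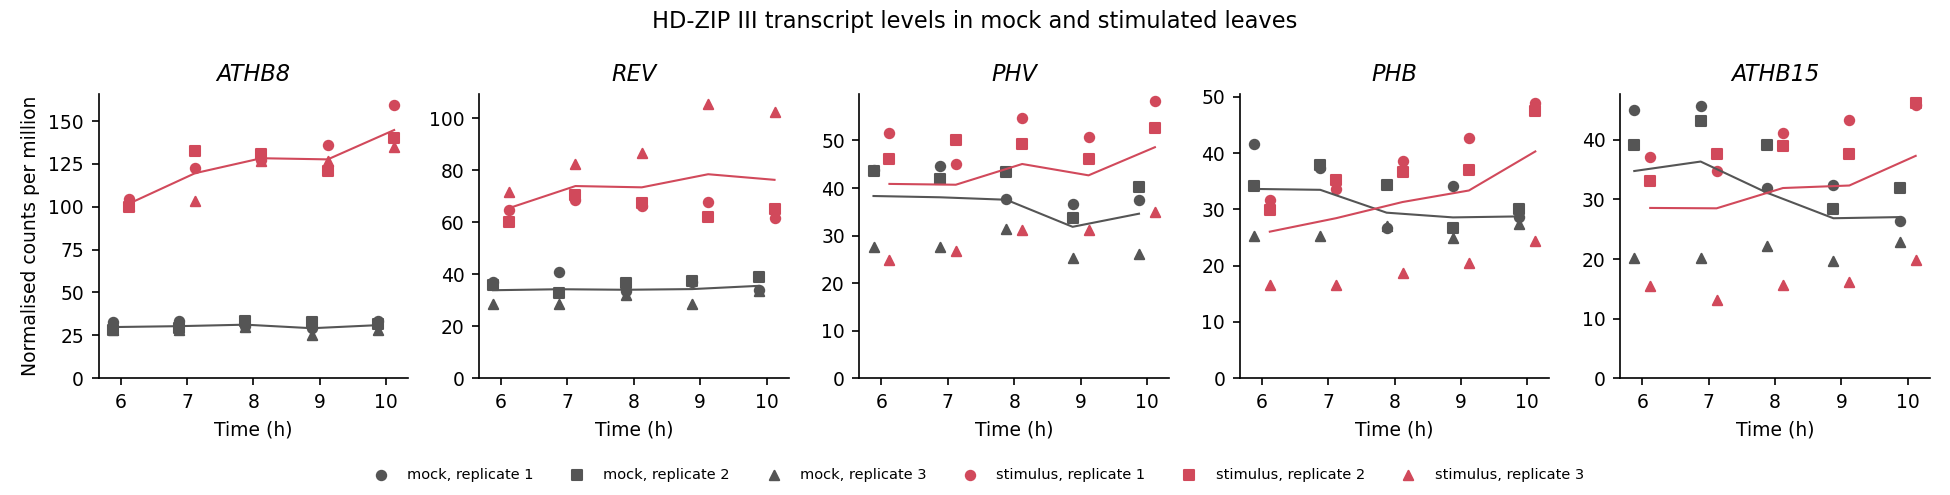
Normalised CPM (vertical axes, each from 0) of the 5 HD-ZIP III genes against hours of incubation; points are single libraries (shape gives the replicate, grey mock, red stimulus) and lines join group means. Mock replicate 3 is the same library at 6 and 7 h. Stimulated ATHB8 and REV lie above mock at every hour. For PHV, PHB and ATHB15 stimulated replicate 3 lies below stimulated replicates 1 and 2, and mock replicate 3 is also lower on average.

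The responses of paralogs were compared within same-numbered pairs at the same hour, on log2(CPM + 0.5), by an exact two-sided sign-flip permutation test over the 13 pairs with distinct libraries. Of 13 comparisons within the families, 11 passed after Benjamini-Hochberg adjustment. The share among other pairs of genes was not computed, so this count is not read as particular to these families. The response of ATHB8 exceeded that of REV by 1.02 ± 0.08 (SE, exact adjusted p = 0.000353) and that of PHV by 1.74 ± 0.06, in 13 of 13 pairs each. REV exceeded PHV by 0.72 ± 0.12 in 13 of 13 pairs. ATHB15 and PHB, whose response differed by -0.05 ± 0.03 (exact adjusted p = 0.135), were the only HD-ZIP III pair that did not pass. PHB fell short of PHV by 0.22 ± 0.08 (exact adjusted p = 0.0231) and ATHB15 fell short of PHV by 0.27 ± 0.07 (exact adjusted p = 0.00667), but within replicates 1 and 2 these shrank to -0.13 (exact adjusted p = 0.169) and -0.18 (exact adjusted p = 0.0533). The smallest p these pairs can give is 0.000244, and hours of 1 replicate number were treated as separate pairs.

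Among the repressors, ZPR1 (AT2G45450, chromosome 2, 18733275 to 18734341, minus strand, 2 exons) was the most abundant. It ranged from 5.25 to 9.32 CPM in mock (median 7.94) and from 7.30 to 16.0 CPM with stimulus (median 9.23). The average log2 fold change was 0.49 ± 0.13 (edgeR adjusted p = 0.00277), with 12 of 15 pairs higher (10 of 13 without those that share a mock library). The rise was concentrated in replicate 3. At 10 h, mock replicates 1, 2 and 3 read 7.93, 7.11 and 5.25 CPM and stimulated replicates read 9.67, 7.30 and 11.7 CPM. In replicates 1 and 2 alone the log2 fold change was 0.10 ± 0.07 (edgeR adjusted p = 0.232), and in replicate 3 alone it was 1.17.

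ZPR3 (AT3G52770, chromosome 3, 19557516 to 19559323, minus strand), which has the shortest coding sequence of the 3 ZPR genes (204 bases), ranged from 0.977 to 3.01 CPM in mock (median 1.81) and from 1.93 to 4.25 CPM with stimulus (median 2.62). The average log2 fold change was 0.55 ± 0.14 (edgeR adjusted p = 0.00218), with 11 of 15 pairs higher (9 of 13 likewise). At 10 h the mock values were 1.20, 1.65 and 0.977 CPM and the stimulated values 2.95, 2.30 and 2.77 CPM, without overlap. In replicates 1 and 2 alone the log2 fold change was 0.31 ± 0.12 (edgeR adjusted p = 0.0355), and in replicate 3 alone it was 1.10.

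ZPR2 (AT3G60890, chromosome 3, 22496875 to 22498099, minus strand) went the other way from its relatives but was barely expressed. Mock libraries held 2 to 15 reads each and stimulated libraries 0 to 7, with 3 stimulated libraries at 0. At 6 h, mock replicates 1, 2 and 3 held 13, 6 and 2 counts and stimulated replicates 2, 3 and 0. At 7 h the mock counts were 13, 13 and 2 and the stimulated counts 2, 0 and 3, so the groups overlapped through mock replicate 3. The average log2 fold change was -1.84 ± 0.37 (edgeR adjusted p = 0.00024), lower in 14 of 15 pairs (13 of 13 likewise). ZPR2 entered the test through 4 mock libraries and no stimulated library at or above 0.528 CPM, so a fall was favoured by the filter. With no low-count filter the log2 fold change was -1.83 (adjusted p = 0.000391).

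**Figure D2:**
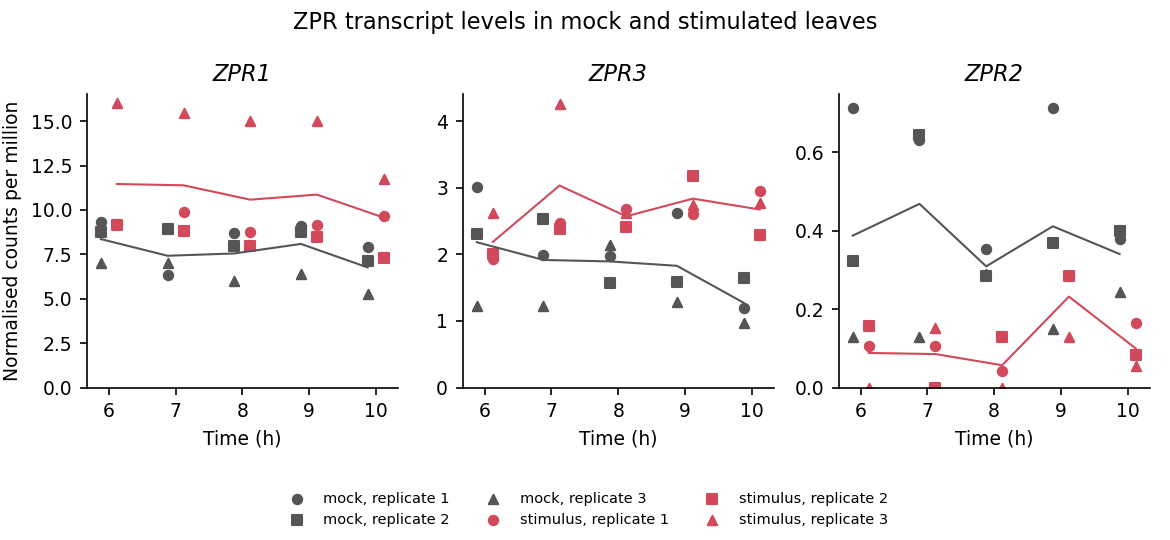
Normalised CPM (vertical axes, each from 0) of ZPR1, ZPR3 and ZPR2 against hours of incubation; points are single libraries (shape gives the replicate, grey mock, red stimulus) and lines join group means. Mock replicate 3 is the same library at 6 and 7 h. Stimulated ZPR1 stands above mock in replicate 3, and ZPR2 stays at or below 0.715 CPM throughout.

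The responses of ZPR1 and ZPR3 differed by -0.03 ± 0.15, which did not pass (exact adjusted p = 0.840, pairs from -0.87 to 1.01). ZPR2 differed from each of them in 13 of 13 pairs, by 0.90 ± 0.15 from ZPR1 and 0.93 ± 0.10 from ZPR3 (exact adjusted p = 0.000353 for each). At counts this low, the added 0.5 CPM holds these ZPR2 differences below the fitted fold changes.

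At single hours, the edgeR test called 2 of the 8 genes at each hour from 6 to 9 h, ATHB8 and REV, and 3 at 10 h, where ZPR3 joined them. Over all genes tested, 9.87% were called at 6 h, 17.0% at 7 h, 12.9% at 8 h, 16.5% at 9 h and 19.1% at 10 h. The ATHB8 log2 fold change was 1.77, 1.98, 2.04, 2.13 and 2.23 from 6 to 10 h, each with an SE of 0.13. For REV it was 0.95, 1.11, 1.11, 1.19 and 1.10, each with an SE of 0.20. ZPR3 at 10 h had a log2 fold change of 1.06 ± 0.33 (edgeR adjusted p = 0.0254), a call that was lost when mock replicate 1 or 3 or stimulated replicate 1 or 3 of that hour was left out (adjusted p from 0.0669 to 0.103) and when 10 h was fitted on its own libraries (0.0756). ZPR2 was not called at any hour. At 7 h it was called by DESeq2 (adjusted p = 0.0343), and by edgeR without organelle, rRNA and tRNA loci (0.0479), without both identical columns (0.0274), in replicates 1 and 2 (0.00325) and in 5 of 30 fits that left out 1 library. With the replicate block it was called at 6, 7, 8 and 10 h (edgeR adjusted p from 0.0116 to 0.0464) and PHV at 9 and 10 h (0.0041 and 0.000974), so that 5 genes were called at 10 h. That fit called 30.4%, 37.9%, 33.1%, 37.1% and 39.5% of all genes from 6 to 10 h. In replicates 1 and 2 alone, 5 of the 8 genes were called at 9 h and 6 at 10 h, against 37.7% and 39.2% of all genes. At 6 h REV missed the threshold when that hour was fitted on its own libraries (adjusted p = 0.0615).

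**Figure D3:**
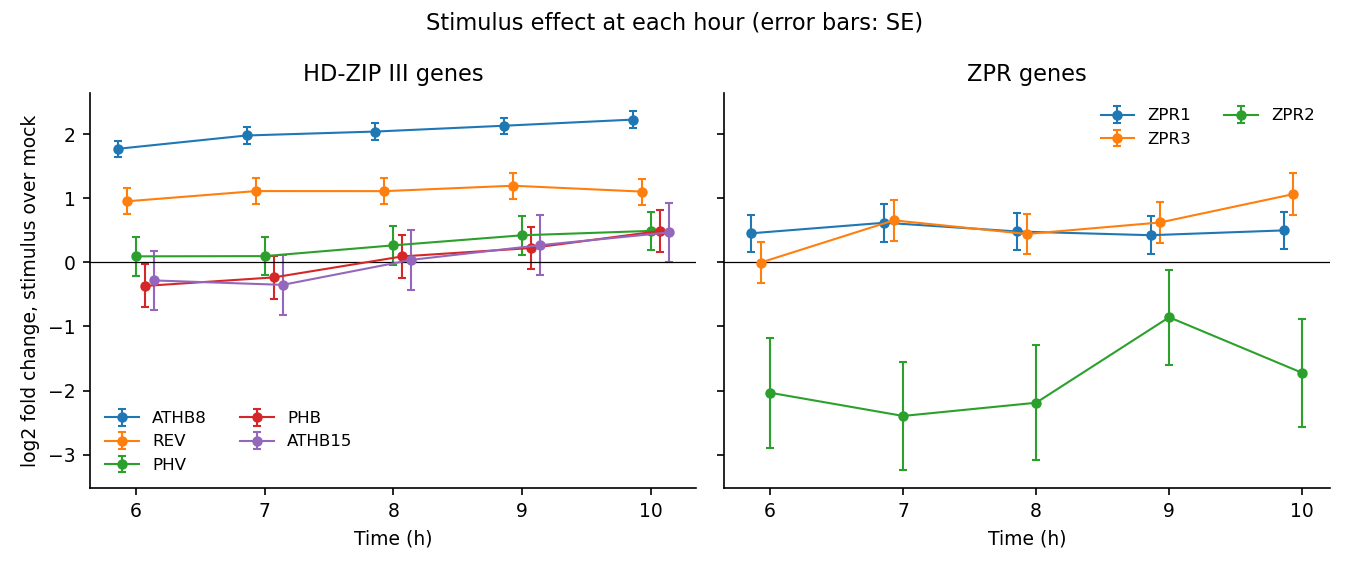
Log2 fold change of stimulus over mock (vertical axis) at each hour of incubation (horizontal axis) for the HD-ZIP III genes (left) and the ZPR genes (right), with error bars of 1 SE from edgeR, 3 mock and 3 stimulated libraries per hour. ATHB8 goes from 1.77 to 2.23 and PHB from -0.37 to 0.49, while ZPR2 carries the widest errors.

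Change over time was tested as a linear trend per hour. In stimulated leaves ATHB8 climbed by 0.11 ± 0.03 log2 units per hour (edgeR adjusted p = 0.0483), and no other member was called, against 1.02% of all genes. That call was lost without both identical columns, with hour 6 or hour 10 left out of the fit, and in 24 of 30 fits that left out 1 library. It was stronger with the replicate block (adjusted p = 0.00113), where the stimulated trend of PHB was called too (0.15 per hour, adjusted p = 0.0333), against 6.37% of all genes. In mock leaves no member had a called trend, against 0.722% of all genes. The difference of trends called none of the 8 genes and 0.0190% of all genes; it was 0.11 ± 0.04 for ATHB8 (adjusted p = 0.653), 0.22 ± 0.11 for PHB (0.976) and 0.21 ± 0.15 for ATHB15. In replicates 1 and 2 alone it was 0.24 for both PHB and ATHB15 and was called for each (edgeR adjusted p = 0.0014 and 0.000775), against 7.71% of all genes. In those replicates 3 members had a called trend in mock and 3 in stimulus, against 22.8% and 16.6% of all genes, and 2 passed the interaction test, against 2.83%. The test of any treatment by time interaction called 0 of all genes by edgeR, with 336 genes at an unadjusted p below 0.05, 93 called with the replicate block and 15 called by DESeq2.

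The measured responses of 6 of the 8 genes differed between the replicate sets. A test of the response in replicate 3 minus that in replicates 1 and 2, added after the data were seen, called 6 of the 8 genes, against 49.2% of all genes. The test took the hours of a replicate number as separate libraries and kept both identical mock columns. Replicate 3 is 1 replicate number, so its variation enters only as scatter between hours. The p-values of this test therefore cannot show whether a further replicate would differ in the same way. REV and ZPR1 responded more in replicate 3, by 0.71 ± 0.10 and 1.11 ± 0.12 (edgeR adjusted p = 3.14e-06 and 8.46e-08), as did ZPR3 by 0.82 ± 0.25 (adjusted p = 0.00901). PHB and ATHB15 responded less, with differences of -0.64 ± 0.11 and -0.54 ± 0.12 (adjusted p = 3.23e-05 and 0.00078), as did PHV with -0.22 ± 0.08 (adjusted p = 0.0303). In replicates 1 and 2 their average log2 fold changes were 0.20 ± 0.06 for PHB and 0.14 ± 0.05 for ATHB15 (edgeR adjusted p = 0.00529 and 0.0245). In replicate 3 they were -0.48 and -0.44, with hour as an additive factor, given as effect sizes only because this is 1 replicate number. Each gene thus had opposite signs in the separate sets. For ATHB8 the values were 2.01 ± 0.05 and 2.04, and the tested difference of 0.08 ± 0.08 was not called (edgeR adjusted p = 0.423). For ZPR2 the difference was 0.38 ± 0.88 (adjusted p = 0.744). In mock leaves each of the 8 genes was lower in replicate 3 than in replicates 1 and 2 by the same added fit. The share of all genes that were lower there was not counted, so this is not read as particular to the 8 genes. The log2 differences went from -0.19 ± 0.06 for ATHB8 to -1.27 ± 0.42 for ZPR2. ATHB15 stood at -0.77 ± 0.09, PHV at -0.54 ± 0.06 and PHB at -0.34 ± 0.08. What sets replicate 3 apart was not tested.

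**Figure D4:**
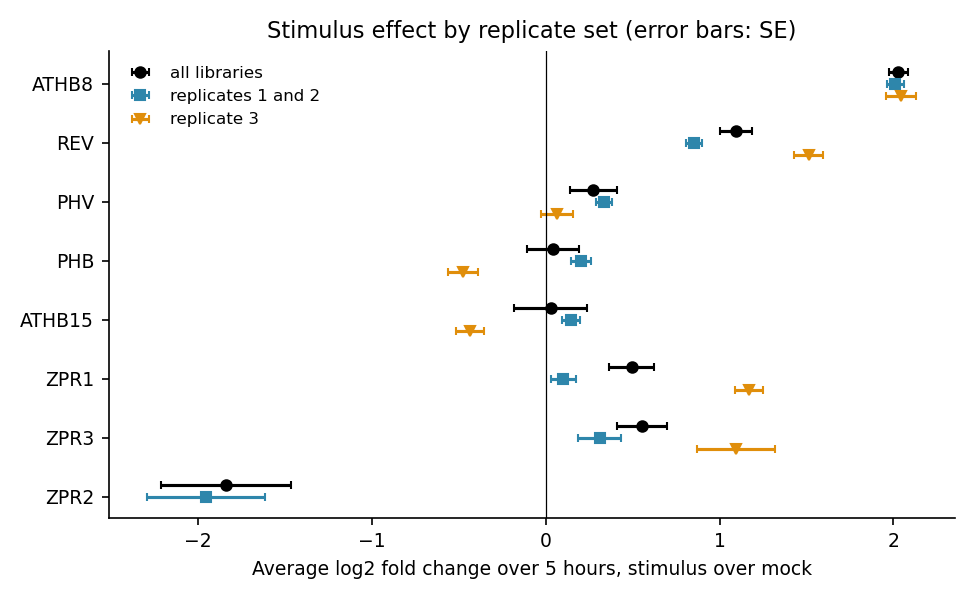
Average log2 fold change over 5 hours (horizontal axis, error bars 1 SE, edgeR) of the 8 genes in all libraries (black), in replicates 1 and 2 (blue) and in replicate 3 (orange; ZPR2 was too low there to be tested). In replicate 3 the bars reflect scatter between hours of 1 replicate number. ATHB8 gives 2.01 and 2.04 in the separate sets, and PHB and ATHB15 change sign between them.

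The fits above took the 5 hours of a replicate number as separate libraries. When counts were summed over hours, which leaves 3 mock and 3 stimulated sums, ATHB8 had a log2 fold change of 2.04 (edgeR adjusted p = 0.00292) and REV of 1.11 (adjusted p = 0.0243). These 2 were the only members called, against 8.21% of all genes. ZPR1 and ZPR3 were at 0.50 and 0.55 (edgeR adjusted p = 0.249 and 0.168). ZPR2 was at -1.71 (adjusted p = 0.0838, or 0.0396 with the replicate block, which called 16.4% of all genes). With replicate 1 or replicate 2 left out, which leaves 2 sums against 2, neither ATHB8 nor REV was called (edgeR adjusted p from 0.164 to 0.325). Their log2 fold changes were still 2.05 and 2.05 for ATHB8 and 1.23 and 1.22 for REV. Those fits called 0.0405% and 0.00449% of all genes. Without replicate 3 the sums called 6 members, against 55.5% of all genes.

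Levels of different genes were compared per kilobase of the annotated representative transcript. In mock leaves the 5 HD-ZIP III genes stood close together, from 8.85 ± 2.54 CPM per kilobase for ATHB15 to 11.9 ± 2.22 for PHV (SD, n = 14), with REV at 9.81 ± 1.00, PHB at 9.91 ± 1.71 and ATHB8 at 9.63 ± 0.83. The ranges of all neighbours in that order overlapped. ZPR1 followed at 7.94 ± 1.37 and overlapped ATHB15. ZPR3 at 1.85 ± 0.61 lay wholly below ZPR1, and ZPR2 was at 0.80 ± 0.39. With stimulus, ATHB8 at 39.3 ± 5.25 CPM per kilobase lay wholly above REV at 20.7 ± 4.06, followed by PHV at 14.2 ± 3.51, ZPR1 at 11.1 ± 3.14, PHB at 10.14 ± 3.39 and ATHB15 at 8.77 ± 3.34 (n = 15), with overlap between these neighbours. ZPR3 at 2.65 ± 0.54 and ZPR2 at 0.22 ± 0.18 came last. Whether reads in introns were counted is not given in the sources used here, and the order in mock depended on it. Per kilobase of transcript ATHB8 stood at rank 4 in mock, and per kilobase of the whole locus at rank 6, with PHB at 5 and ZPR1 at 2; with stimulus ATHB8 was at rank 1 on either scale.

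Across the 29 distinct libraries, log2(CPM + 0.5) of ATHB8 and REV had a Pearson r of 0.934 and that of ATHB15 and PHB of 0.952, while ATHB15 and ATHB8 had 0.00441. These values describe libraries that share treatments, hours and the replicate 3 offset. Among 17029 genes, those most like ATHB8 were AT2G01990 (an XRI1-like protein, r = 0.992), the ethylene synthesis gene ACS4 (0.990) and the gibberellin synthesis gene GA1 (0.989). REV was most like KDR, a basic helix-loop-helix factor (0.976), the gibberellin-inactivating GA2OX8 and the kinase BSK6 (0.974 each). ATHB15 and PHB were each other's most similar gene, followed by AT5G48360 and CMT2 for ATHB15 (0.949 each) and by UGP3 (0.936) and XIG (0.926) for PHB. PHV was most like AT2G25050 (0.961). ZPR1 was most like AT4G33910 (0.903), ZPR2 like AT1G78280 (0.886) and ZPR3 like AT5G23575 (0.841).

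Of the 9 loci that encode miR165 and miR166, 2 had enough counts to test, 1 lower and none higher on average. MIR166A, with 500 counts over all distinct libraries, went from 1.29 ± 0.63 to 0.528 ± 0.251 CPM (SD). Its log2 fold change was -1.27 ± 0.26 (SE, edgeR adjusted p = 0.000228, or 0.0992 on counts summed over hours). MIR166B, with 197 counts, was at 0.50 ± 0.26 (adjusted p = 0.0995). The libraries were made from long RNA, so these counts are of precursor transcripts and mature microRNA was not measured. Of 5 genes for microRNA synthesis and loading, 2 rose and 1 fell, while 29.7% of all genes tested rose and 27.0% fell. With the replicate block HYL1, a cofactor of microRNA processing, rose too (edgeR adjusted p = 0.0023, with 69.2% of all genes called). On counts summed over hours none of the 5 was called, against 8.21% of all genes. AGO1, which carries miR165 and miR166 to their targets, went from 75.2 ± 7.41 to 91.6 ± 4.13 CPM (log2 fold change 0.30 ± 0.06, adjusted p = 7.71e-05). AGO10, which sequesters them, went from 77.7 ± 15.1 to 52.6 ± 17.5 CPM (-0.54 ± 0.16, adjusted p = 0.00728, or 0.0602 without TMM scaling). The AGO10 value was -0.35 in replicates 1 and 2 alone and -1.17 in replicate 3 alone. SE (SERRATE), a microRNA processing factor, was at 0.24 ± 0.09 (adjusted p = 0.0331), a call lost in 14 of 30 fits that left out 1 library.

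ZPR4, the remaining LITTLE ZIPPER gene (annotated as non-coding in TAIR10.1), had a log2 fold change of -0.36 ± 0.19 (edgeR adjusted p = 0.113), and was called lower with the replicate block (adjusted p = 0.0127). All 10 HD-ZIP II genes, a related class that responds to shade and auxin and acts with HD-ZIP III in leaf polarity, were called on average. Of these, 4 rose and 6 fell, while 29.7% of all genes rose and 27.0% fell. On counts summed over hours 3 were called higher and 1 lower, against 8.21% of all genes called in either direction. ATHB17 went from 0.255 ± 0.163 to 13.5 ± 6.09 CPM (SD; log2 fold change 5.76 ± 0.37) and passed the count filter only through stimulated libraries. HAT2, an auxin-induced member, went from 22.9 ± 10.2 to 210.2 ± 63.3 CPM (3.26 ± 0.25). ATHB4 and HAT1 were lowest, at -1.62 ± 0.37 and -1.48 ± 0.45. The HAT1 value rested on replicate 3, which alone gave -5.40, while replicates 1 and 2 gave -0.91 and put ATHB2 (-1.22) and HAT3 (-1.04) below it.

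Genes of the lower (abaxial) leaf side, which oppose HD-ZIP III, were lower where they changed: 5 of 9 tested fell and none rose. Over all genes 27.0% fell and 29.7% rose. The YABBY gene FIL went from 8.86 ± 3.02 to 4.10 ± 1.36 CPM (SD; log2 fold change -1.08 ± 0.16, edgeR adjusted p = 6.48e-06) and the GARP factor gene KAN2 from 11.8 ± 2.93 to 6.14 ± 2.11 CPM (-0.90 ± 0.20, adjusted p = 0.000546). With the replicate block, which called 69.2% of all genes, 7 abaxial genes fell and 1 rose. With library totals in place of TMM scaling, which called 59.8%, 5 fell and 1 rose. On counts summed over hours, which called 8.21%, 2 were called lower. The adaxial partners AS1 and AS2 fell as well, by 0.55 and 0.91 on the log2 scale (adjusted p = 0.000404 and 0.000244), and neither was called on the sums.

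Of 10 genes placed in the HD-ZIP III circuit or among reported targets, 8 were tested, of which 6 rose and 2 fell. Over all genes 29.7% rose and 27.0% fell. On counts summed over hours 3 were called higher and none lower, against 8.21% of all genes called in either direction. WRKY53, a senescence regulator reported as a REV target, went from 8.89 ± 3.63 to 43.3 ± 36.2 CPM (SD; log2 fold change 2.32 ± 0.39, edgeR adjusted p = 2.50e-05), where replicates 1 and 2 alone gave 1.06 and replicate 3 alone 3.47. The auxin synthesis gene TAA1 went from 9.92 ± 3.46 to 33.8 ± 13.8 CPM (1.77 ± 0.19, adjusted p = 6.57e-08). YUC5, which acts in the same pathway, went from 0.960 ± 0.346 to 0.309 ± 0.248 CPM (-1.67 ± 0.30, adjusted p = 6.20e-05). It passed the count filter only through mock libraries, and it stood at -2.46 in replicates 1 and 2 and -0.75 in replicate 3. SCR, an endodermal identity gene, went from 23.5 ± 5.35 to 12.2 ± 2.54 CPM (-0.90 ± 0.14, adjusted p = 1.04e-05). MP, the activator of ATHB8, ACL5 and BUD2 for polyamine synthesis, and SHR were the other genes that rose, by 1.09, 0.90, 1.44 and 0.44 on the log2 scale. SHR stood at 0.64 in replicates 1 and 2 alone and at 0.02 in replicate 3 alone.

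**Figure D5:**
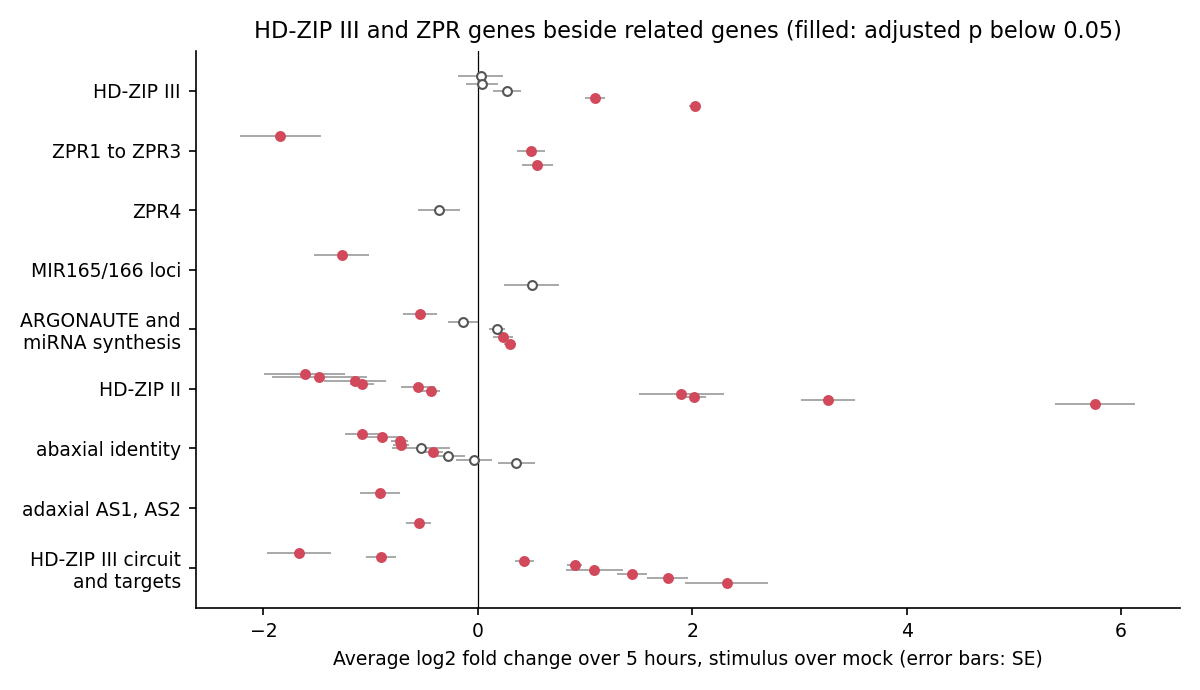
Average log2 fold change over 5 hours (horizontal axis, error bars 1 SE, edgeR) of each tested gene of the HD-ZIP III and ZPR families and of the related lists (rows); filled points have an adjusted p below 0.05. The 5 called abaxial genes and both adaxial genes lie below 0, and HD-ZIP II genes lie on each side of it.

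Some markers of leaf cell types were called too, and others were not. Over all genes, 29.7% were called higher and 27.0% lower on average. All 4 mesophyll markers fell (median -0.78 on the log2 scale). Of 2 procambium markers PXY, the receptor that maintains procambial cells, rose from 36.3 ± 7.66 to 84.1 ± 15.6 CPM (SD; log2 fold change 1.24 ± 0.12, edgeR adjusted p = 7.73e-09), and WOX4 was at -0.22 ± 0.40 (adjusted p = 0.661). WOX4 stood at 0.20 in replicates 1 and 2 alone and at -3.03 in replicate 3 alone. Of 2 phloem companion cell markers SUC2 rose by 1.28 ± 0.09, and APL was at 0.17 ± 0.13 (edgeR adjusted p = 0.264, or 0.0298 with the replicate block). Of 4 xylem markers 1 fell (IRX3, -0.40 ± 0.08) and none rose. Of 3 epidermal markers 1 fell (PDF2, -0.46 ± 0.09), and with the replicate block all 3 did (ATML1 and PDF1, edgeR adjusted p = 0.0101 and 2.22e-05). The blocked fit called 69.2% of all genes. Neither guard cell marker was called. On the sums 1 mesophyll marker, SUC2 and PXY were called, against 8.21% of all genes. The part of such shifts in the HD-ZIP III and ZPR values was not tested.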

How the data were processed

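The authors deposited raw read counts per gene locus for 30 libraries in a single table. Reads were aligned with BWA and TAIR10 was the genome build, per the submitters' processing notes; how reads were counted, and with what use of strand and introns, is not stated in these sources. Counts were tested as deposited with edgeR 4.0.16 in R 4.3.3 (default low-count filter, TMM scaling, 1 mean per group over all 30 libraries, quasi-likelihood F test, Benjamini-Hochberg adjustment over all genes tested, threshold 0.05). SEs are the log2 fold change divided by the root of F, and approximate intervals are 1.96 SE wide on each side. The 8 genes, the related lists and the rule for naming them (per list, the 2 highest and 2 lowest called) were chosen with earlier results of these data known; markers and circuit genes named beyond that rule were picked after their values were seen. Alternatives were DESeq2 1.42.0, other scalings and filters, a replicate block, summed counts, single hours and libraries left out. Scripts were tested on simulated data.

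Deviations from group means of same-numbered mock and stimulated libraries correlated above 0.1 in 15 of 15 pairs (0.182 to 0.526), though 9 of 15 correlated best with their own number. The numbers were treated as pairs in the paralog comparisons, the tallies of pairs and the blocked fits. The main edgeR values come from fits without the block, which leave this pairing out. Blocked values are printed where they change a call. Sequences, places and lengths come from the RefSeq annotation of TAIR10.1. The 5 h samples of the design were not analysed here.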

Additional observations from a re-analysis of the deposited data

How the results depend on the processing

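With the replicate block, which treats same-numbered libraries as pairs, 5 members were called at 10 h (3 without it, and 5 with the block and without both identical columns). The block called 39.5% of all genes at 10 h, against 19.1% without it. With it 2 members had a trend in stimulus, against 6.37% of all genes. Without both identical columns the block gave 1 trend in mock. At 6 h, 2 members were called with all libraries in the fit and 1 when that hour was fitted alone. In replicates 1 and 2 only, 5 were called at 9 h and 6 at 10 h, against 37.7% and 39.2% of all genes. There 3 were called for the trend in mock and 3 for the trend in stimulus, against 22.8% and 16.6%. The difference of trends called 2 and the interaction 2, against 7.71% and 2.83%. The single trend in stimulus fell to 0 with DESeq2 size factors, without a low-count filter, without both identical columns, without the 6 h and without the 10 h libraries. With 1 library left out, calls ranged from 0 to 1 for that trend and from 5 to 6 on average. Calls on summed counts ranged from 0 to 6 with a replicate number left out, where 0.00449% to 55.5% of all genes were called. Paralog pairs of unequal response ranged from 9 to 11. On average over hours, ATHB8, REV, ZPR1, ZPR2 and ZPR3 were called in each of the 30 fits that left out 1 library. None of those fits leaves out replicate 3 as a whole, and ZPR1 was not called in replicates 1 and 2 only (edgeR adjusted p = 0.232). The cause of these changes was not tested, apart from fewer libraries in the fits that leave some out.

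Signs turned for values near 0. Each was uncalled unless stated in the report, and fits of replicate 3 alone are given as effect sizes only. ATHB15 on average went from 0.027 to -0.040 with the replicate block, -0.050 with the block and without both identical columns, -0.084 without those columns, -0.44 in replicate 3 only and -0.075 without the 10 h libraries. With the block it went to -0.048 at 8 h (-0.051 without the identical columns too) and to -0.045 on sums. PHB on average went to -0.014 with the block, -0.0047 with the block without both identical columns, -0.027 without them, -0.48 in replicate 3 only and -0.066 without 10 h. PHV went to -0.087 at 6 h and -0.064 at 7 h without both identical columns. ZPR3 at 6 h went from -0.0039 to 0.088 with library totals, 0.0097 without a filter, 0.0014 with at least 50 counts in 3 libraries and 0.0078 with the block. ZPR1 at 9 h was -0.020 in replicates 1 and 2. Trends in mock went to -0.0058 without both identical columns and -0.0047 without 10 h for ATHB8, and to -0.032 with the block and -0.015 with no block, both without the identical columns, for REV. Trends in stimulus went to -0.013 for REV in replicates 1 and 2 and -0.049 for ZPR3 without 6 h. The difference of trends went to -0.018 in replicates 1 and 2 and -0.0061 without 6 h for REV. For ZPR1 it went to 0.014 with library totals, 0.033 with the block without both identical columns, 0.0073 without them and 0.0091 in replicate 3. ZPR1 minus ZPR3 was 0.064 with 2 CPM added.

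With 1 library left out, ranges that crossed 0 were -0.56 to 0.014 for ATHB15 at 6 h, -0.18 to 0.36 at 8 h, -0.0022 to 0.59 at 9 h and -0.030 to 0.096 on average. They were -0.42 to 0.040 for PHB at 7 h, -0.085 to 0.35 at 8 h and -0.0035 to 0.095 on average. PHV ranged from -0.10 to 0.35 at 6 h and -0.087 to 0.32 at 7 h, and ZPR3 from -0.28 to 0.30 at 6 h. On sums with a replicate number left out, ATHB15 ranged from -0.062 to 0.14 and PHB from -0.038 to 0.22. Trends in mock ranged from -0.0070 to 0.021 for ATHB8, -0.0065 to 0.030 for REV and -0.13 to 0.096 for ZPR2. Trends in stimulus ranged from -0.0011 to 0.080 for REV and -0.094 to 0.0048 for ZPR1, and differences of trends from -0.016 to 0.065 for REV and -0.046 to 0.053 for ZPR1. ZPR1 minus ZPR3 ranged from -0.16 to 0.13. ZPR2 could not be fitted in replicate 3 alone or with at least 50 counts in 3 libraries. Its 0 to 15 counts per library limit its precision.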
